A study of Mus musculus with 8 samples.

Results

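The keratin gene family was examined in a time course of a mouse pre-iPSC clone with and without vitamin C. Members were the genes whose only symbol in the platform annotation is Krt followed by digits, which gave 48 of 19938 genes, each read by 1 probe set. Letters after the number (Krt6a, Krt6b, Krt33a, Krt33b) and the keratin-associated proteins (Krtap) were not members. Pre-iPSCs are partly reprogrammed cells, which have left the somatic state without reaching pluripotency. The cells, MaF pre-iPSC9P2, are 1 clone and were grown in mESC medium (for mouse embryonic stem cells) over a feeder layer, which was removed after trypsin treatment. The medium was changed on day 2 to the same medium with vitamin C at 50 µg/ml or without it, and total RNA was extracted on days 3, 4, 5 and 6. Each day gave 1 array per treatment, 8 in all.

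Keratins are the intermediate filament proteins of epithelial cells. A keratin filament is built from pairs of an acidic type I and a basic type II chain, and epithelia differ in the pair they make. Krt8 and Krt18, with Krt7, Krt19 and Krt20, belong to simple, single-layered epithelia, and Krt8 and Krt18 are among the first keratins of the embryo. Stratified epithelia such as epidermis make Krt5 and Krt14 in the basal layer and Krt1 and Krt10 above it, while other members build the inner root sheath, hair and nail. The loss of mesenchymal and the gain of epithelial features is a known step in reprogramming of fibroblasts.

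The 48 members comprised 5 simple-epithelial, 16 stratified, 9 inner root sheath or companion layer and 11 hair and nail keratins, and 7 that were left without a class (Krt23, Krt24, Krt42, Krt80, Krt88, Krt90 and Krt222). By RefSeq's positions (GRCm38.p6) the type I genes lie together on chromosome 11 (25 members) and the type II genes on chromosome 15 (21 members). Krt18 is the type I gene on chromosome 15, directly beside its partner gene Krt8. Krt88, also on chromosome 15, was given no type. Krt74, counted in the inner root sheath class, is a transcribed pseudogene in RefSeq. Krt7 and Krt80 are neighbours too, and Krt16, Krt17 and Krt42 follow each other on chromosome 11. Neighbours were read among protein-coding genes alone.

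The promoters of 4 simple-epithelial keratins are shown because Krt7, Krt8 and Krt18 rose over the days with vitamin C in the results, whereas Krt20 did not pass any test. Krt42 was lower on day 6 than on day 3 in both treatments, a fall that passed with vitamin C alone, and is shown beside them. Sequences are from RefSeq (GRCm38.p6), which held 36 promoters of 35 members. None was held for Krt19, Krt1, Krt16, Krt17 or Krt80, which also rose over the days with vitamin C. Each is the 250 bases before the annotated start of transcription, 5′ to 3′ on the strand of the gene, with CG dinucleotides in capitals. The windows are chr15:101412153-101412402 (plus strand), chr15:102004343-102004592 (minus strand), chr15:102027966-102028215 (plus strand), chr11:99438154-99438403 (minus strand) and chr11:100269952-100270201 (minus strand), in that order.
Krt7: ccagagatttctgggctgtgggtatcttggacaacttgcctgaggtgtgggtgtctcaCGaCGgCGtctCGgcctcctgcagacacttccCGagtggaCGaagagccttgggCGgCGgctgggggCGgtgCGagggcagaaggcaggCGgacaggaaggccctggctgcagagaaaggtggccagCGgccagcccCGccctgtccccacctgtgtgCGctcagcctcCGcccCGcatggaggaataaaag
Krt8: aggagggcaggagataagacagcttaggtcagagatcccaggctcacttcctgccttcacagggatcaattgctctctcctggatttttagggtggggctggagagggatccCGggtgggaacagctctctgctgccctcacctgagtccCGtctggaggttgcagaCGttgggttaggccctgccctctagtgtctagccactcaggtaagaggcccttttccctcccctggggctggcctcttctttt
Krt18: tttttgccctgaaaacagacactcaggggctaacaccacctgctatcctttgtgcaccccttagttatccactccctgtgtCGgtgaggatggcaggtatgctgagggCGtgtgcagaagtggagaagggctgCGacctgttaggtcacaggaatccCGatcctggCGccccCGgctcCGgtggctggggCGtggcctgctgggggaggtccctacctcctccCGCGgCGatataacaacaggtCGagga
Krt20: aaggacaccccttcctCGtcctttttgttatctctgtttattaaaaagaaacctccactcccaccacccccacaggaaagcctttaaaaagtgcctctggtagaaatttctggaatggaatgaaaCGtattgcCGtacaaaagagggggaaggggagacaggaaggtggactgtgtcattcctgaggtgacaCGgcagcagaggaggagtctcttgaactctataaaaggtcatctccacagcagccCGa
Krt42: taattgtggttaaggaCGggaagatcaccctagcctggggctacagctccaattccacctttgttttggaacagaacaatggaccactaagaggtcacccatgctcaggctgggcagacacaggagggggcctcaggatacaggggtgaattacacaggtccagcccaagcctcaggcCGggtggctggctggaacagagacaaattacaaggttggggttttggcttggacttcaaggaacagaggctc

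The upstream windows of Krt7 and Krt18 held 16 and 12 CG dinucleotides, the most among the members in the table. Krt8 held 3, Krt20 held 5 and Krt42 held 2. The median was 4 over the 36 keratin windows and 6 over all 32851 promoter windows of that length, of which 33.5% held at least 12. The motif GGGCGG, searched on both strands, occurred 4 times in the Krt7 window and in 1 other keratin window, that of Krt75, against 32.7% of all windows. The motif TATAAA, also searched on both strands, was found in 7 of the 8 inner root sheath and 5 of the 8 hair and nail keratin windows, and in 12.4% of all windows. Among the simple-epithelial windows it was found in that of Krt20. The AP-1 motif TGANTCA, searched on both strands, occurred in the 2 windows of Krt13 and in 6.7% of all windows. These matches describe the letters in the window and are not binding sites.

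All values below are log2 values per probe set as deposited. A probe set's level depends on its probes as well as on the RNA, so levels are compared between arrays and not between genes. A difference of 1 is a 2-fold difference. Adjusted p-values are from limma, by Benjamini and Hochberg over all 19938 genes, and pass below 0.05. Errors are moderated SE unless stated. Separate cultures for the days are not named in the labels, so the 8 arrays may differ for technical reasons. The error of the vitamin C test comes from the spread of the daily differences. That of the slopes comes from the spread of the arrays around straight lines. Both can hold real change over the days besides technical spread, and so few arrays limit the precision. In bulk RNA, fewer cells that make a keratin and less keratin RNA per cell cannot be told apart. The arrays had median log2 values from 4.33 to 4.40 and correlated with 0.977 to 0.994 across 28853 probe sets.

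Most members varied little. The range over the 8 arrays exceeded 1 in 12 of 48 keratins and in 2374 of all 19938 genes. Of the 48, 25 had a mean above 3.63, the log2 value that bounds the dimmest 33.3% of genes. By class these were 4 of 5 simple-epithelial, 11 of 16 stratified, 4 of 7 unclassed, 5 of 11 hair and nail and 1 of 9 inner root sheath keratins. Dim probe sets may show little change, which limits comparisons between the classes. As a class, the simple-epithelial keratins varied most, with all 5 members ranging over more than 1 and a median range of 2.54, against 0.53 for the stratified, 0.46 for the inner root sheath and 0.51 for the hair and nail class and 0.58 for all genes. Wide ranges were not limited to it, and 5 of 16 stratified keratins also ranged over more than 1. Krt80 (2.42), Krt17 (2.29), Krt1 (2.20) and Krt16 (2.19) ranged more widely than the simple-epithelial Krt19 (2.02) and Krt20 (1.36).

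With vitamin C, 4 of the 5 simple-epithelial keratins rose from day 3 to day 6. Krt18, a type I chain of simple epithelia, had log2 values of 5.71, 5.95, 6.85 and 7.65 on days 3 to 6 in untreated cells and of 6.03, 6.48, 8.58 and 10.28 with vitamin C. Its lowest value was on untreated day 3 and its highest on vitamin C day 6, and the treatments overlapped. The slope with vitamin C was 1.49 ± 0.13 log2 per day (adjusted p = 0.000313), a 19.1-fold change from day 3 to day 6. In untreated cells it was 0.67 ± 0.13 per day (adjusted p = 0.0295), a 3.84-fold change.

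Krt8, the type II partner of Krt18, was at 8.84, 8.66, 9.23 and 9.88 without and at 8.94, 9.05, 10.34 and 11.19 with vitamin C. The arrays of days 5 and 6 with vitamin C were above all others. Krt8 rose by 0.80 ± 0.11 per day with vitamin C (adjusted p = 0.00233), 4.77-fold in all, and its slope without it, 0.37 ± 0.11, did not pass (adjusted p = 0.129).

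Krt7, a type II keratin of ducts and glands and of trophoblast, was at 5.21, 5.08, 5.96 and 6.97 without and at 5.39, 5.50, 7.62 and 8.75 with vitamin C. The day 3 and day 4 arrays of both treatments lay close together, and the 2 late vitamin C arrays were again highest. The slope with vitamin C was 1.22 ± 0.15 per day (adjusted p = 0.00169), a 10.2-fold change, and that without it was 0.61 ± 0.15 (adjusted p = 0.0793).

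Krt19, a type I keratin without a fixed type II partner, was at 9.66, 9.55, 10.41 and 11.28 without and at 9.70, 9.80, 11.07 and 11.57 with vitamin C. Here the treatments lay closer on each day than for Krt18, Krt8 and Krt7, with differences of 0.04, 0.26, 0.66 and 0.29 on days 3 to 6. Krt19 rose in both, by 0.57 ± 0.11 per day without (adjusted p = 0.035) and by 0.69 ± 0.11 per day with vitamin C (adjusted p = 0.00586).

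Krt20, a type I keratin of intestinal and urothelial cells, was at 2.91, 3.01, 2.99 and 4.26 without and at 2.94, 3.12, 3.45 and 3.61 with vitamin C. The untreated day 6 array stood alone at the top, and the mean of Krt20 was below 3.63. Its slopes of 0.41 ± 0.11 without (adjusted p = 0.0949) and 0.23 ± 0.11 with vitamin C (adjusted p = 0.212) did not pass.

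**Figure D1:**
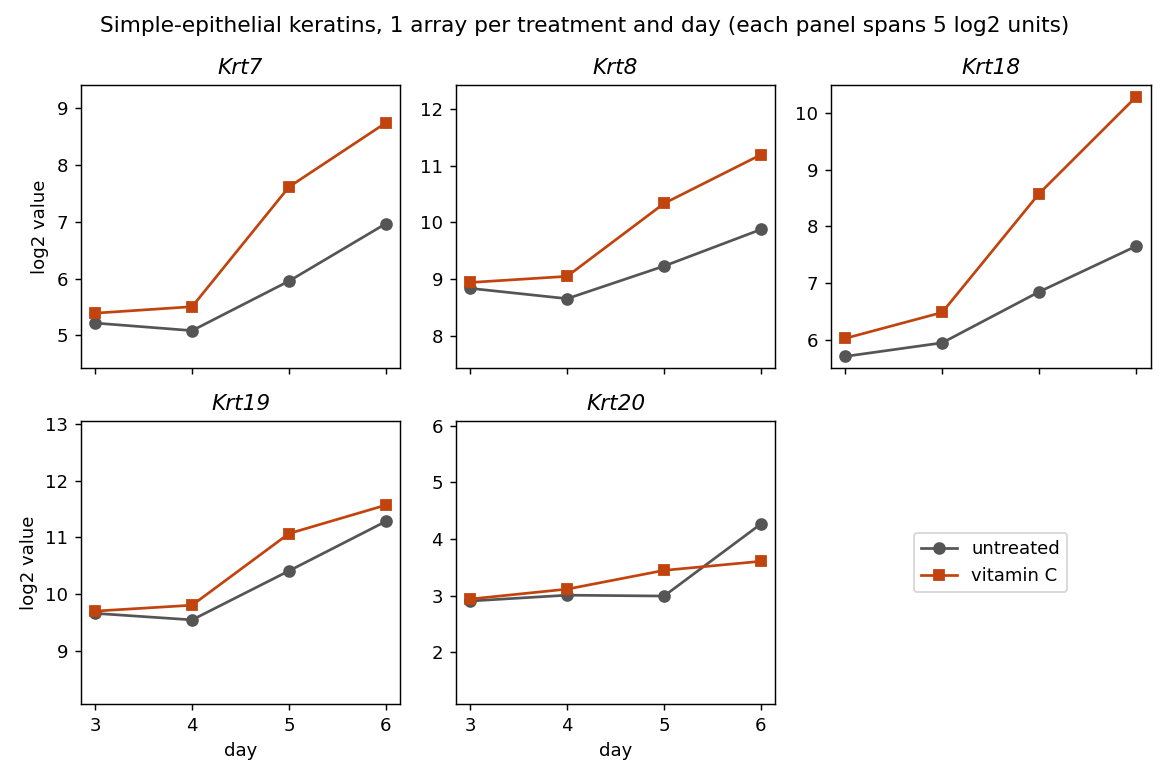
Log2 values (y axis) of the 5 simple-epithelial keratins by day (x axis), 1 point per array, untreated in grey and vitamin C in orange. Krt18 reaches 10.28 and Krt7 8.75 on day 6 with vitamin C, against 7.65 and 6.97 without. The lines of Krt19 stay closer, with the widest gap on day 5.

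Outside the simple-epithelial class, 4 keratins rose over the days with vitamin C. Krt17, a type I keratin of skin appendages and injured or proliferating epithelia, was at 6.76, 6.49, 6.92 and 7.28 without and at 7.01, 7.08, 8.14 and 8.78 with vitamin C. It was higher with vitamin C on each day, and its slope with vitamin C was 0.64 ± 0.10 per day (adjusted p = 0.00377). Its neighbour Krt16, a type I keratin of stressed epidermis, was at 4.96, 4.75, 4.90 and 5.56 without and at 4.33, 3.88, 5.76 and 6.07 with vitamin C, so that it was below the untreated level on days 3 and 4 and above it on days 5 and 6. The slope of Krt16 with vitamin C was 0.71 ± 0.16 per day (adjusted p = 0.0204).

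Krt1, the type II keratin of the upper epidermal layers, was at 5.78, 5.21, 5.13 and 5.41 without and at 5.53, 5.38, 6.61 and 7.33 with vitamin C. Only the late vitamin C arrays stood above the rest, and the slope with vitamin C was 0.66 ± 0.12 per day (adjusted p = 0.00767). Krt80, a type II keratin beside Krt7, was at 4.24, 4.50, 5.10 and 5.41 without and at 4.84, 4.81, 5.72 and 6.66 with vitamin C. It rose by 0.64 ± 0.09 per day with vitamin C (adjusted p = 0.00356), and by 0.41 ± 0.09 without it, which did not pass (adjusted p = 0.0592).

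Both falls over the days with vitamin C were of type I keratins. Krt13, of the suprabasal layers of mouth and oesophagus, was at 6.10, 5.40, 5.11 and 5.21 without and at 5.96, 5.36, 5.09 and 4.86 with vitamin C, and its slope with vitamin C was -0.36 ± 0.08 per day (adjusted p = 0.026). Krt42 was at 7.71, 6.97, 7.13 and 6.97 without and at 7.87, 7.56, 7.31 and 6.97 with vitamin C, with a slope of -0.30 ± 0.08 (adjusted p = 0.0428). In both genes day 3 was highest in each treatment. The slopes without vitamin C, -0.29 ± 0.08 for Krt13 (adjusted p = 0.11) and -0.20 ± 0.08 for Krt42 (adjusted p = 0.224), did not pass. Krt16, Krt17, Krt42 and Krt14 have similar sequences, and whether each probe set reads 1 of them alone is uncertain.

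**Figure D2:**
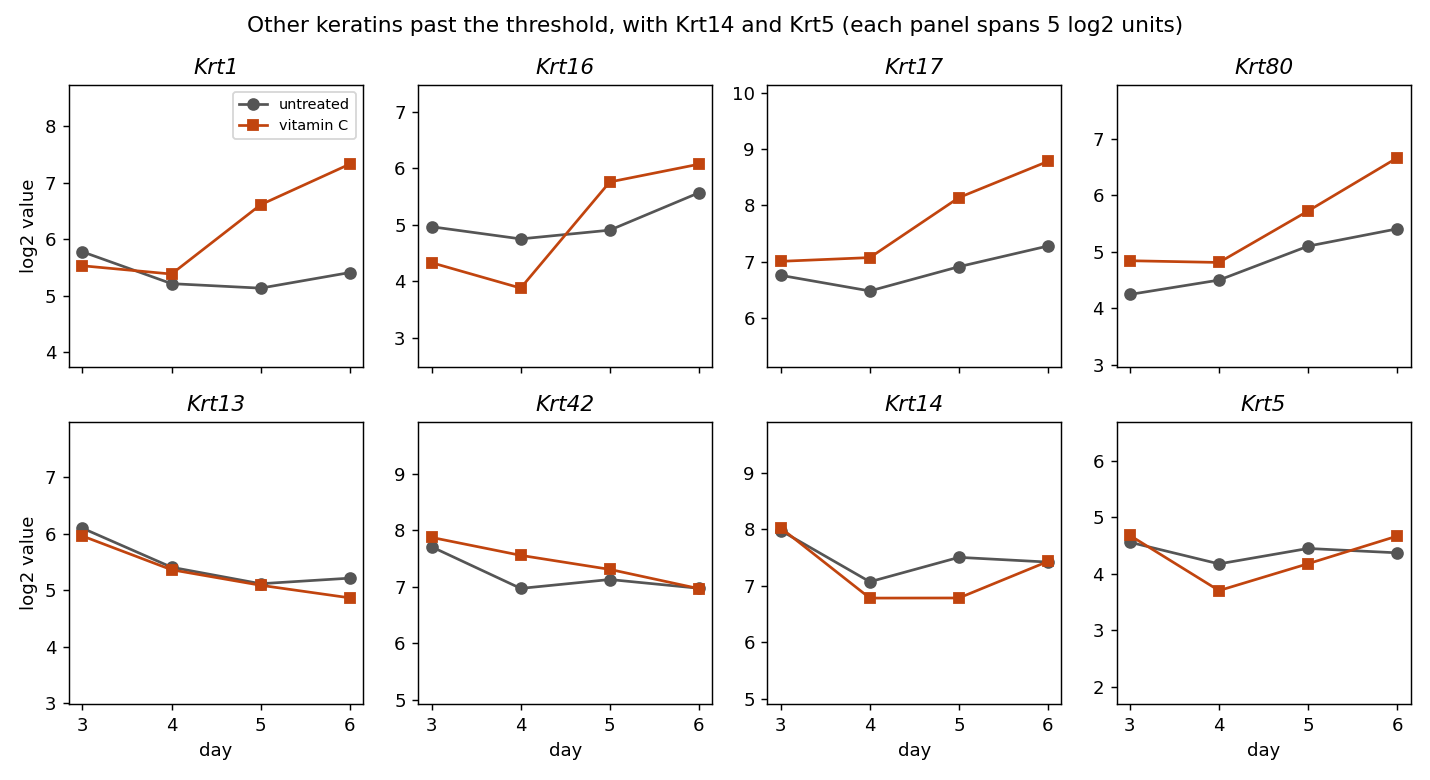
Log2 values (y axis) by day (x axis) of the 6 keratins outside the simple-epithelial class that passed a test, and of Krt14 and Krt5, 1 point per array. Krt1, Krt16, Krt17 and Krt80 end highest with vitamin C on day 6, Krt13 and Krt42 start highest on day 3, and Krt14 and Krt5 are highest on day 3 in each treatment.

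Together, 10 of 48 keratins had a slope with vitamin C that passed, against 8.64% of all genes. Of these, 8 rose (5.25% of all genes) and 2 fell (3.39% of all genes). By class, 4 of 5 simple-epithelial, 3 of 16 stratified and 1 of 7 unclassed keratins rose, and 0 of 11 hair and nail and 0 of 9 inner root sheath keratins passed in either direction, also at an unadjusted p under 0.05. The median slope with vitamin C was 0.80 per day in the simple-epithelial, 0.02 in the stratified and -0.03 in the hair and nail class, and -0.02 over all genes. The rise was found in both types, with 4 type I and 4 type II members.

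Without the vitamin C array of day 6, most of these calls were lost while the slopes changed less. Then 1 of 48 keratins passed, Krt18 with 1.28 ± 0.19 per day (adjusted p = 0.0184), and the number of all genes that passed went from 1722 to 270. The slopes of the other 9 kept their direction, with 1.11 for Krt7, 0.70 for Krt8, 0.68 for Krt19, 0.71 for Krt16, 0.56 for Krt17, 0.54 for Krt1, 0.44 for Krt80, -0.44 for Krt13 and -0.28 for Krt42. Their errors were larger, such as 0.25 for Krt7. Feeder or fibroblast markers fell over the same days. The mean of the 22 markers measured of 22 listed was 7.41, 7.40, 6.99 and 6.51 on untreated days 3 to 6 and 6.92, 6.77, 6.62 and 6.34 with vitamin C. Of them 8 fell without vitamin C (0.968% of all genes) and 7 with it (3.39% of all genes), and all 22 had a mean above 3.63. With this marker mean added to the model, an alternative chosen after the data were seen, 0 of 48 keratins and 2 of all 19938 genes had a called slope with vitamin C, and the slope of Krt18 was 1.18 ± 0.24 (adjusted p = 0.179). Since the marker mean itself fell with day, this fit cannot tell it apart from day, and the loss of calls across all genes goes with that overlap.

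In untreated cells fewer slopes passed, among the keratins and among all genes. Counts of calls do not test a difference between treatments, which is tested below as an interaction. Here 2 of 48 keratins passed, Krt18 and Krt19, both rising, against 1.75% of all genes in either direction, 0.782% rising and 0.968% falling. At an unadjusted p under 0.05, 7 keratins rose (8.39% of all genes) and 2 fell (8.66% of all genes). All 5 simple-epithelial keratins had a positive slope, with a median of 0.57 per day against 0.00 over all genes. At least 2-fold higher values on day 6 than on day 3 were found in 6 keratins without vitamin C (Krt7, Krt8, Krt18, Krt19, Krt20 and Krt80), against 1.18% of all genes, and in 8 with vitamin C, against 3.3%. At least 2-fold lower values were found in 0 without vitamin C (1.16% of all genes) and in Krt13 alone with it (1.35%). Higher values at each step from day to day were found in 3 keratins without vitamin C (8.83% of all genes) and in 7 with it (7.59%), and lower values at each step in 0 (9.52%) and 2 (11.1%). The number called without vitamin C turned on single arrays. It was 0 without the untreated array of day 3, day 4 or day 6 or the vitamin C array of day 5, 1 (Krt20) without the untreated array of day 5, and 4 (Krt7, Krt18, Krt19 and Krt80) without the vitamin C array of day 3 or of day 4. Without the vitamin C array of day 6, Krt18, Krt19 and Krt80 passed. Leaving out a vitamin C array does not change the untreated slopes, only the error that both treatments share. With the feeder or fibroblast marker mean in the model the number called was 0, and the slope of Krt19 became -0.07.

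**Figure D3:**
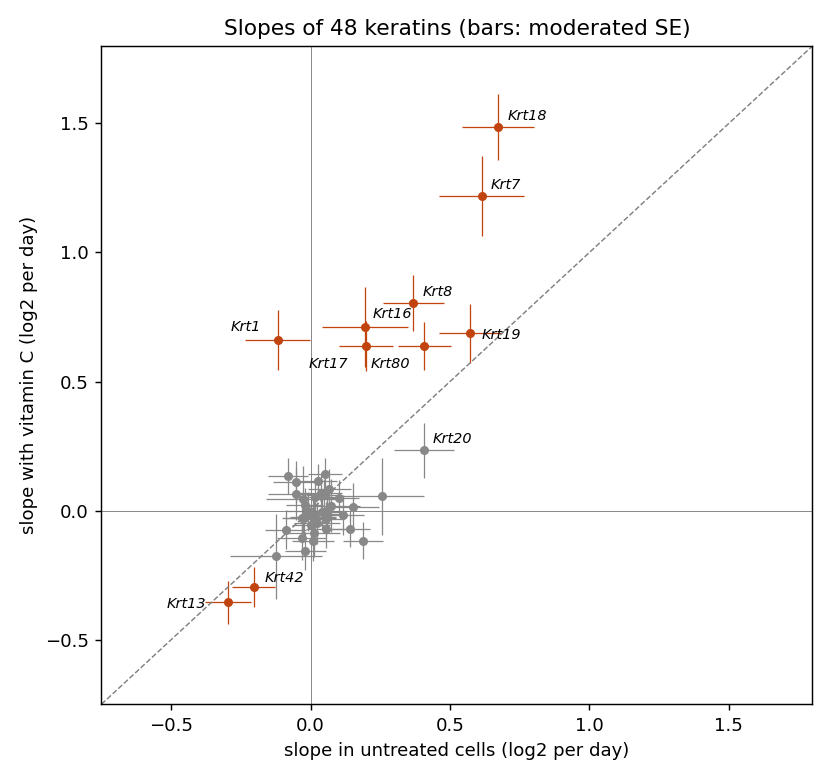
Slope on day of each of the 48 keratins in untreated cells (x axis) and with vitamin C (y axis), both in log2 per day, with bars of 1 moderated SE. Orange points passed with vitamin C. Krt18 (0.67 and 1.49), Krt1 (-0.12 and 0.66) and Krt7 (0.61 and 1.22) lie furthest above the dashed line of equal slopes, in that order, and most of the other keratins lie near 0.

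The vitamin C difference was next tested across the days. No keratin passed in limma (0 of 48), against 0.752% of all genes, of which 0.537% were higher and 0.216% lower. At an unadjusted p under 0.05, 7 keratins were higher with vitamin C (6.18% of all genes) and 0 lower (6.52%). The 7 were Krt18, Krt7, Krt17, Krt1, Krt8, Krt80 and Krt19. No keratin had its 4 vitamin C arrays all above (2.1% of all genes) or all below (2.61%) the 4 untreated ones. Krt17 was higher by 0.89 ± 0.19 (adjusted p = 0.0823), Krt80 by 0.70 ± 0.15 (adjusted p = 0.0831), Krt18 by 1.30 ± 0.33 (adjusted p = 0.12), Krt7 by 1.01 ± 0.26 (adjusted p = 0.128) and Krt8 by 0.73 ± 0.19 (adjusted p = 0.142). Krt1 (0.83, adjusted p = 0.304) and Krt19 (0.31, adjusted p = 0.331) followed.

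The daily differences of these genes were unequal, and their spread enters the error of that test. From day 3 to day 6, Krt18 differed by 0.32, 0.54, 1.73 and 2.63, with a mean of 1.30 ± 1.08 (SD, n = 4 days). On day 6 the level with vitamin C was 6.20 times that without. For Krt7 the differences were 0.17, 0.42, 1.66 and 1.78, with an SD of 0.83, and for Krt8 they were 0.10, 0.39, 1.10 and 1.32, with an SD of 0.57. Krt17 differed by 0.25, 0.59, 1.22 and 1.5, Krt1 by -0.25, 0.17, 1.48 and 1.92, and Krt80 by 0.60, 0.31, 0.62 and 1.26. In all of these the differences of days 5 and 6 exceeded those of days 3 and 4, whereas Krt19 differed most on day 5 (0.66) and by 0.29 on day 6.

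Taken day by day, with 1 array per treatment and so no test, 0 keratins were at least 2-fold higher with vitamin C on day 3 (0.371% of all genes), 1 on day 4 (0.642%), 5 on day 5 (0.963%) and 6 on day 6 (1.51%). Those of day 5 were Krt1, Krt7, Krt8, Krt17 and Krt18, and Krt80 joined them on day 6. The keratin of day 4 was the hair keratin Krt31, higher by 1.02 on day 4 and lower by 1.03 on day 5, when it was the sole keratin at least 2-fold lower (0.266% of all genes). On days 3, 4 and 6, 0 keratins were at least 2-fold lower (0.301%, 0.451% and 0.306% of all genes). Higher values on all 4 days were found for 6 keratins, Krt7, Krt8, Krt17, Krt18, Krt19 and Krt80, which is 12.5% of the family against 9.29% of all genes. Lower values on all 4 days were found for Krt2, Krt13 and Krt26, 6.25% of the family against 11.1%.

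**Figure D4:**
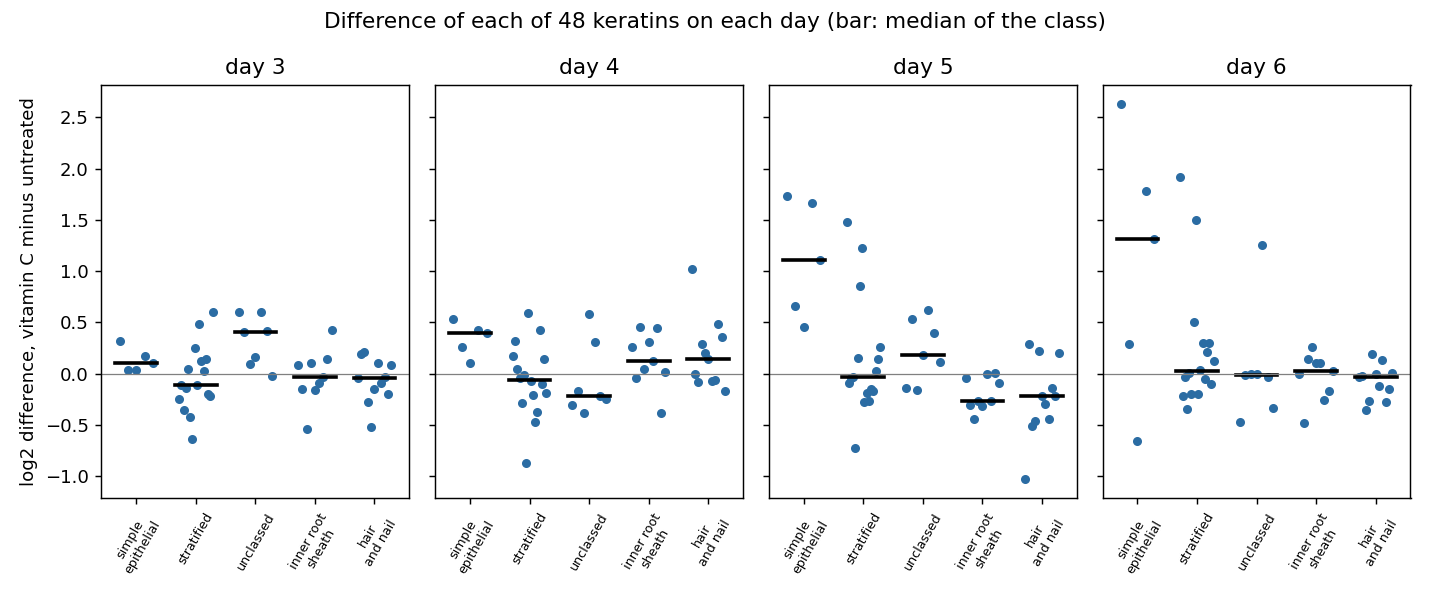
Log2 difference between the vitamin C and the untreated array of each day (y axis) for each of 48 keratins (points), by class (x axis), with the median of the class as a bar. The median of the simple-epithelial class goes from 0.10 on day 3 and 0.39 on day 4 to 1.10 on day 5 and 1.32 on day 6, while those of the inner root sheath and the hair and nail class stay between -0.27 and 0.15.

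The estimates of the test over days changed with the feeder or fibroblast marker mean in the model as well. That mean was lower with vitamin C on each day and fell over the days. It therefore overlaps with treatment and day, and this fit cannot tell them apart. With the marker mean in place of day, the differences were -0.16 for Krt18, -0.29 for Krt7, -0.10 for Krt8, -0.03 for Krt80 and -0.65 for Krt19, and 0.31 for Krt17 and 0.51 for Krt1, with adjusted p-values from 0.353 to 0.975. Without day 3, Krt17 and Krt7 passed (adjusted p = 0.0267 and 0.0483).

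Whether the vitamin C difference changed with day was tested as an interaction. Without pairing by day, 0 of 48 keratins passed in limma, against 0.0652% of all genes. At an unadjusted p under 0.05, 6 had a difference that grew (5.52% of all genes) and 1 a difference that shrank (5.74%). Krt18 came nearest among the simple keratins, with a difference that grew by 0.81 ± 0.18 per day (adjusted p = 0.167), and Krt1 among the others, with 0.78 ± 0.16 per day (adjusted p = 0.137). With day as a block, which pairs the arrays of a day, both passed (Krt18 with an SE of 0.11 and Krt1 with an SE of 0.10, adjusted p = 0.0445 for each), as did 0.1% of all genes. Krt7 (0.61 per day) and Krt8 (0.44 per day) did not pass in either fit, with adjusted p = 0.341 for each in the fit without pairs and adjusted p = 0.0998 for Krt7 and 0.139 for Krt8 with them. Without the vitamin C array of day 3, Krt18 passed without pairs too (1.23 per day, adjusted p = 0.0186). The one downward value with an unadjusted p under 0.05, named after its value was seen, was that of Krt222 (-0.30 ± 0.10 per day, adjusted p = 0.307).

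Seen by filament partners, the members did not all move in pairs. Krt8 and Krt18 both rose over the days with vitamin C. Krt10, the usual type I partner of Krt1, lay between 4.11 and 4.44 on all 8 arrays, with a slope of -0.01 ± 0.07 with vitamin C (adjusted p = 0.925). Krt4, the partner of Krt13, lay between 2.79 and 3.27 and did not pass (-0.02 per day with vitamin C, adjusted p = 0.92). Its mean of 3.03 was below 3.63, so these values cannot tell whether it followed the fall of Krt13.

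The basal epidermal pair did not pass in any of the 4 tests. Krt5 was at 4.56, 4.17, 4.45 and 4.37 without and at 4.68, 3.70, 4.18 and 4.66 with vitamin C, and Krt14 at 7.97, 7.07, 7.50 and 7.42 without and at 8.02, 6.78, 6.78 and 7.43 with it. Both genes were highest on day 3 and lowest on day 4 in each treatment, with days 4 and 5 of Krt14 nearly equal with vitamin C. Their slopes with vitamin C were 0.04 ± 0.13 (adjusted p = 0.869) and -0.18 ± 0.16 (adjusted p = 0.553).

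Krt6b, a type II keratin of stressed epidermis that can pair with Krt16 and Krt17 and is outside the 48 members, was at 4.58, 3.61, 3.63 and 3.73 without and at 3.78, 3.63, 4.41 and 5.34 with vitamin C. It rose with vitamin C by 0.55 ± 0.13 per day (adjusted p = 0.0248). Krt6a, its close relative, was at 6.10, 4.84, 5.26 and 5.03 without and at 5.83, 4.93, 5.66 and 5.08 with vitamin C, and did not pass (-0.15 per day with vitamin C, adjusted p = 0.579). These 2 genes are near-identical copies, so whether each probe set measures 1 of them alone is uncertain. Krt33a and Krt33b, hair keratins outside the 48 members, did not pass in any test.

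Hair, nail and inner root sheath keratins showed only small and mixed differences. However, only 5 of 11 hair and nail and 1 of 9 inner root sheath keratins had a mean above 3.63. For the dimmer ones a lack of response cannot be told from a low signal. In the hair and nail class the mean vitamin C difference ran from -0.18 (Krt34) to 0.12 (Krt32), and in the inner root sheath class from -0.24 (Krt26) to 0.10 (Krt75), with medians of -0.05 and -0.01 against -0.01 over all genes. Krt31 had the widest range of these classes, with 3.73, 3.27, 4.36 and 4.23 without and 3.69, 4.30, 3.33 and 4.20 with vitamin C, in no order by treatment or day. Krt73 followed with 3.16, 2.81, 3.12 and 3.56 without and 3.12, 3.26, 2.85 and 3.30 with vitamin C. Of the 44 keratin-associated protein genes, which encode matrix proteins of hair, 0 passed in any of the 4 tests, while 7 of 44 had an unadjusted p under 0.05 in the test over days, as did 2531 of all 19938 genes.

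Among the other members, the stratified keratins differed by -0.24 (Krt14) to 0.89 (Krt17) in the mean over days, and the unclassed ones by -0.12 (Krt90) to 0.70 (Krt80). Krt9, of palm and sole skin, was at 2.76, 2.77, 2.63 and 2.85 without and at 3.36, 2.59, 2.89 and 2.97 with vitamin C, and Krt23 at 2.61, 2.59, 2.72 and 2.82 without and at 3.02, 2.42, 3.25 and 2.80 with it. Neither passed, and the treatments overlapped in both.

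Genes whose products hold keratin filaments were examined as a list. Of 13 anchors, that is, plakins and desmosomal proteins, 2 were higher over days (0.537% of all genes) and 11 did not pass. Their median difference was 0.28 against -0.01 over all genes. Ppl, which encodes periplakin and links keratin to the cell edge, was at 5.73, 5.61, 5.88 and 6.50 without and at 6.06, 6.59, 7.46 and 7.97 with vitamin C, a difference of 1.09 ± 0.19 (adjusted p = 0.0435), and it overlapped between treatments on the vitamin C array of day 3 alone. Pkp2, a plakophilin of desmosomes, was higher by 0.69 ± 0.13 (adjusted p = 0.0489). Over the days with vitamin C, Ppl (0.66 per day), Dsc2 (0.61), Pkp3 (0.42), Evpl (0.28) and Pkp2 (0.28) rose, 5 of 13 (5.25% of all genes). Without it 0 passed (1.75% of all genes in either direction).

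Of 18 transcription factors known to act on keratin or epithelial genes, 3 were higher over days (Grhl2, Ovol1 and Klf5), 2 were lower (Zeb1 and Snai2, repressors of epithelial genes) and 13 did not pass. Over all genes, 0.537% were higher and 0.216% lower in that test. Trp63, the regulator of stratified epithelia, was among those that did not. Over the days without vitamin C, 2 of the 18 rose, Elf3 (0.59 per day, adjusted p = 0.00467) and Grhl3 (0.41, adjusted p = 0.0113), against 0.782% of all genes. Zeb2 fell (-0.32, adjusted p = 0.0237), against 0.968% of all genes. With vitamin C 3 rose and 0 fell, against 5.25% and 3.39% of all genes, and the slope of Elf3 was 0.60. Of 16 other intermediate filament genes, 1 was lower over days and 15 did not pass. This was Vim, the filament of mesenchymal cells, lower with vitamin C by 0.65, 0.48, 0.75 and 0.65 on days 3 to 6 (-0.63 ± 0.10, adjusted p = 0.0341). Over the days without vitamin C, 1 of the 16 fell, Nefl (-0.53 ± 0.11 per day, adjusted p = 0.0416), against 0.968% of all genes. With vitamin C, 1 rose and 1 fell, against 5.25% and 3.39% of all genes.

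**Figure D5:**
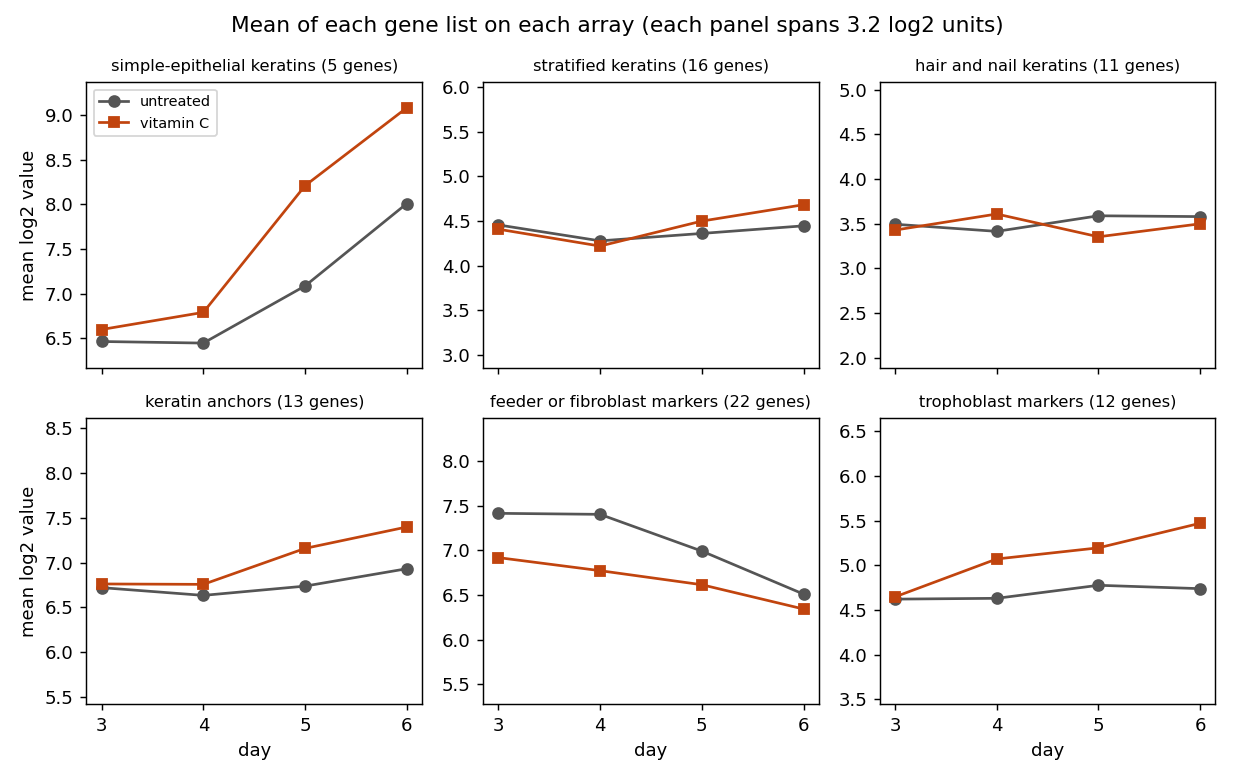
Mean log2 value (y axis) of 6 gene lists on each array by day (x axis), untreated in grey and vitamin C in orange. The simple-epithelial mean goes from 6.60 to 9.08 with vitamin C and from 6.47 to 8.01 without, the stratified mean stays between 4.22 and 4.68 and the hair and nail mean between 3.35 and 3.61, and the feeder or fibroblast mean falls in both treatments.

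Markers of other cells moved in part with the simple keratins, and their part in the keratin results was not tested. Over all genes, 0.537% were higher over days and 0.0652% passed the interaction. Slopes that rose without vitamin C were found in 0.782% of all genes. With vitamin C 5.25% of all genes rose and 3.39% fell. All 8 markers of pluripotent cells, which are epithelial, had a mean above 3.63. Their list mean went from 6.94 on day 3 to 7.69 on day 6 without and from 7.72 to 8.98 with vitamin C. Of the 8, 2 were higher over days (Nanog and Dppa5a), 2 rose over the days without vitamin C (Nanog and Tdgf1) and 6 rose with it (Cdh1, Dppa5a, Esrrb, Nanog, Tdgf1 and Zfp42). Trophoblast makes Krt7, Krt8, Krt18 and Krt19. Of its 12 measured markers 10 had a mean above 3.63. The mean of the 12 was between 4.62 and 4.78 without and between 4.65 and 5.47 with vitamin C. The difference over days was above 0 in 8 of the 12, and 3 passed as higher (Elf5, Rhox6 and Rhox9). Cdx2 was at -0.33 in that test and did not pass (adjusted p = 0.307). Over the days with vitamin C, 5 rose and 1 (Tead4) fell. Eomes rose without vitamin C too (0.37 per day, adjusted p = 0.0228). Plac1 passed the interaction, but it was dim, at 2.95, 2.81, 2.57 and 2.42 without and 2.19, 3.51, 3.61 and 5.14 with vitamin C. Of 16 keratinocyte markers, 13 had a mean above 3.63. Their list means were between 5.17 and 5.54 without and between 5.36 and 5.90 with vitamin C. Tgm1 was higher over days (1.15 ± 0.17, adjusted p = 0.0222) and 15 did not pass that test. The cornified envelope genes Sprr1a (0.83 per day), Sprr1b (0.90) and Tgm1 (0.54) rose over the days with vitamin C. The desmoglein gene Dsg3 fell both with vitamin C (-0.65) and without it (-0.43 per day, adjusted p = 0.00826). Of 11 markers of extraembryonic endoderm, 8 with a mean above 3.63 and with list means between 4.15 and 4.41 without and between 4.27 and 4.69 with vitamin C, 3 rose over the days with vitamin C (Gata4, Gata6 and Sox17).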

How the data were processed

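Expression was measured in 8 Affymetrix whole-transcript arrays. The deposited values are log2 values per probe set made by the authors; RMA and Partek are named, per the submitters' processing notes, with no version or build. They were taken as log2 because the largest is 13.8. Of 28853 probe sets, 21789 had 1 gene symbol in the platform annotation, 1621 had several and 5443 were not listed. The probe set with the highest mean represented a gene. All 48 keratins matched a RefSeq gene by identifier.

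The keratin classes, the lists and the genes to name were chosen with earlier results of these data known. Named with all values were the simple-epithelial keratins, those past the threshold in any test and the 6 others with the widest range. The class of simple-epithelial keratins is therefore no independent choice.

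Tests used limma 3.58.1 in R 4.3.3 (lmFit, eBayes), two-sided. The vitamin C effect was fitted with day as a factor. Interaction and slopes came from 1 model with a slope on day for each treatment. Day in the labels pairs the arrays of a day; the deviations of the paired arrays had correlations of 0.371, 0.18, 0.125 and 0.475 (days 3 to 6). The slopes within a treatment cannot take the block. The scripts were tested on simulated data. Alternatives changed the normalization, the filter, the variance model, the threshold or the role of day, or left out 1 array or day. Tables and plots were made with Python 3.11.15, pandas 2.3.3 and matplotlib 3.10.9.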

Additional observations from a re-analysis of the deposited data

Results flagged for a closer look

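The untreated array of day 6 stood apart for Krt20, at 4.26 against 3.01 for the next untreated array, a gap of 0.924 of the range of the 4 untreated arrays. It was the only such value among 34 groups of 4 arrays examined, and chance gives about 1 in 20 groups. The 4 arrays of a treatment are 4 days and not replicates of 1 condition, so that a late rise has the same form.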

How the results depend on the processing

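The number of keratins called over days with vitamin C was 0 and became 2 at an adjusted p under 0.1, 1 with trend and robust variance options, and 0 to 2 when single days were left out. With day left out of the model, that is, with no replicate block, it was 0 (17 of all genes). For the interaction it was 0, and 2 with the replicate block of day, and 0 to 1 without single arrays. For the untreated slope it was 2, and 5 at an adjusted p under 0.1, 0 at 0.01, 0 with days 5 and 6 set against days 3 and 4, 0 with the feeder marker mean, and 0 to 4 without single arrays. For the slope with vitamin C it was 10, with 1 to 10 without single arrays and 0 with the feeder marker mean, which left 2 of all genes. The feeder marker mean in the slopes and the split into early and late days were chosen after the data were seen.

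Direction turned with the feeder marker mean in place of day for Krt18 (-0.16), Krt19 (-0.65), Krt7 (-0.29), Krt8 (-0.10) and Krt80 (-0.034) in the test over days. With it added to the slopes, it turned for Krt19 (-0.072), Krt20 (-0.13), Krt7 (-0.18) and Krt8 (-0.23) in untreated cells. The untreated slope of Krt42 ran from -0.29 to 0.0015 without single arrays. The cause was not tested. Over 34 single results and 493 alternative values, 427 kept direction and side of the threshold, 42 lost and 14 gained the call and 10 turned. Averaging probe sets changed no keratin value, since each keratin had 1 probe set.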
